A study of Mus musculus with 29 samples.

Results

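The effect of calorie restriction on messenger RNA was compared between the liver and the hindlimb muscle of C57BL/6 males, an inbred mouse strain, over all 29 of the 29 libraries of the series. The comparison is the change from control to restriction in liver minus the same change in muscle, called the tissue difference here. All 16 mice were bought at 14 weeks of age, ate rodent chow and started the diets when 4 months old. Controls were given 13.6 kcal per day, 95% of free intake, so they too were held slightly below free feeding. Restricted animals were given 8.6 kcal per day, or 60%, and the fat was soybean oil (soy), fish oil (fish) or lard. From liver there were 3 libraries of control, 4 of soy, 4 of fish and 4 of lard mice; from muscle there were 4, 3, 3 and 4. Liver and muscle came from the same animals in 13 mice. No genotype other than the strain and no drug is named in the labels, and the muscle was the whole hindlimb musculature. The sources used here do not give the time on the diets.

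Liver and skeletal muscle divide the work of living on less food. The liver exports glucose, ketone bodies and lipoproteins, and its programme follows growth hormone, glucagon and glucocorticoids. Muscle burns fatty acids and its own glycogen and releases amino acids when energy is short. A transcript may therefore answer restriction in both tissues, in one, or in opposite directions, and a tissue difference needs a test of its own because a call in one tissue and none in the other can arise from spread alone.

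Before the results, 4 libraries have to be named because they stood apart from their groups. The control muscles of mice 1071 and 1120 carried blood and marrow transcripts. Their erythroid markers, which are genes of red blood cells and red cell precursors, had summed levels of 2111 and 6895 CPM (reads of a gene scaled to a library of 1e6 reads), against 208.8 and 577.3 CPM in the other control muscles and 235.8 to 911.7 CPM in 10 restricted muscles. Their neutrophil markers summed to 344.8 and 1208 CPM, against 5.41 and 12.1 CPM in the other control muscles and 1.56 to 5.56 CPM in restricted muscles. The soy livers of mice 1073 and 1159 had 5.47% and 5.41% of gene reads outside exons, against 7.91% to 8.92% in the other livers. Erythroid markers summed to 1094 and 1102 CPM in those livers and to 2381 CPM in lard liver 1130, against 498.8 to 737.8 CPM in control livers. Fish liver 1123 held 3666 CPM of muscle fibre markers, against 266.4 to 346.6 CPM in control livers. The labelled tissues were otherwise borne out, with hepatocyte markers at 116700 to 218700 CPM in livers and 261.5 to 823.9 CPM in muscles, and muscle fibre markers at 137500 to 301800 CPM in muscles. Depth was 11315231 to 27106865 exon reads per library. In bulk tissue, fewer cells of a type and less RNA per cell cannot be told apart.

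**Figure D1:**
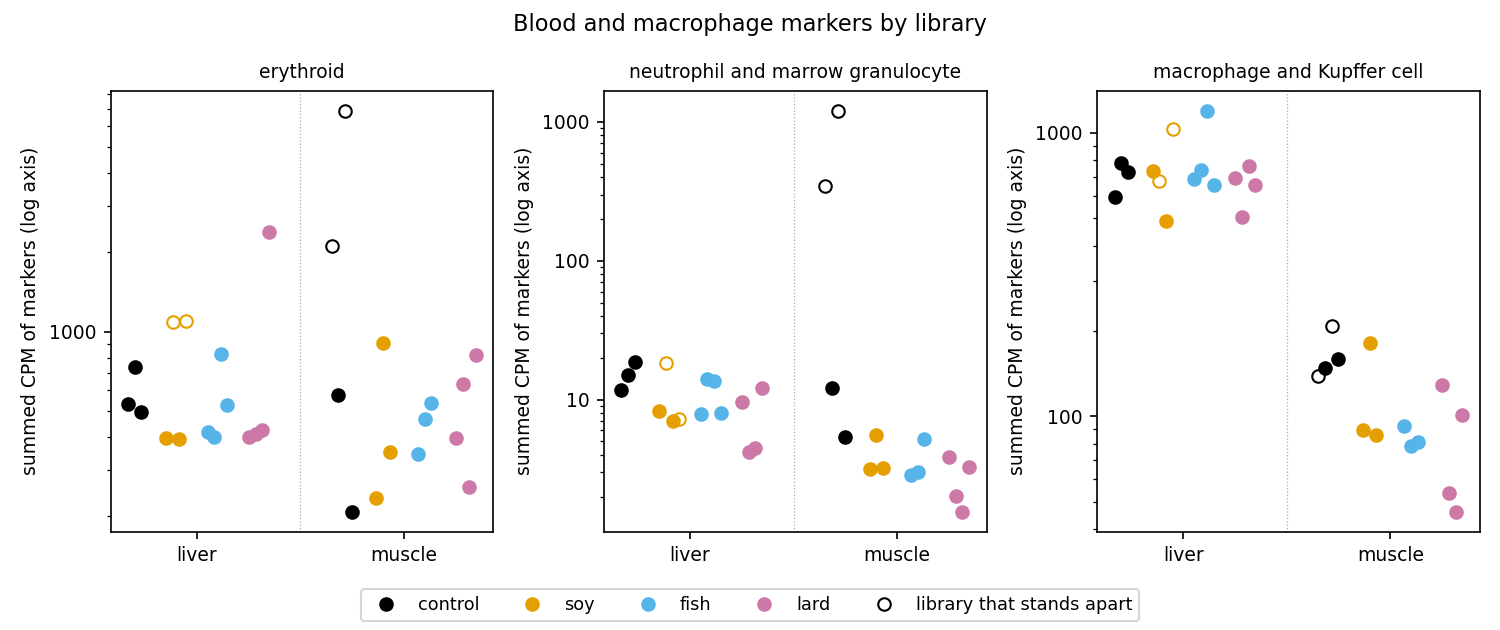
Summed level of blood and macrophage marker genes in each library (CPM, log axis), by tissue and diet, with open symbols for the 4 libraries that stood apart. The control muscles 1071 and 1120 lie above every other muscle in erythroid and neutrophil markers, at 344.8 and 1208 CPM for the latter.

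Few of the changes under restriction could be assigned to one tissue by test. Of 14150 genes tested, 194 changed in liver (53 higher and 141 lower, 1.37% of those tested) by edgeR's quasi-likelihood F test at a Benjamini-Hochberg adjusted p under 0.05. In muscle 1244 changed (337 higher and 907 lower, 8.79% in all and 6.41% lower). The tissue difference passed for 93 genes (0.657%), of which 55 were higher and 38 lower in liver relative to muscle, with 2583 genes at an unadjusted p under 0.05. Of the 93 genes 70 were expressed well enough to be measured in both tissues, out of 11800 such genes (0.593%).

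Those 11800 genes were sorted into 4 classes. A response counted as shared when both tissues passed in the same direction (3 genes) and as opposite when both passed in opposite directions (2 genes). It counted as liver-only when liver passed, muscle did not and the tissue difference passed (28 genes, 9 higher and 19 lower). The muscle-only class is the mirror image (35 genes, 12 higher and 23 lower). Among the measured genes 134 passed in liver (1.14%) and 1030 in muscle (8.73%). For 101 of the liver calls and 990 of the muscle calls no class could be given, since the other tissue did not pass and the difference did not either. A further 5 genes, Enpp5, Qpct, Dpy19l3, Ddo and Txnrd2, passed the tissue difference while neither tissue passed alone, with tissue differences of -0.65, 1.01, -1.55, -0.77 and 0.67 on the log2 scale.

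**Figure D2:**
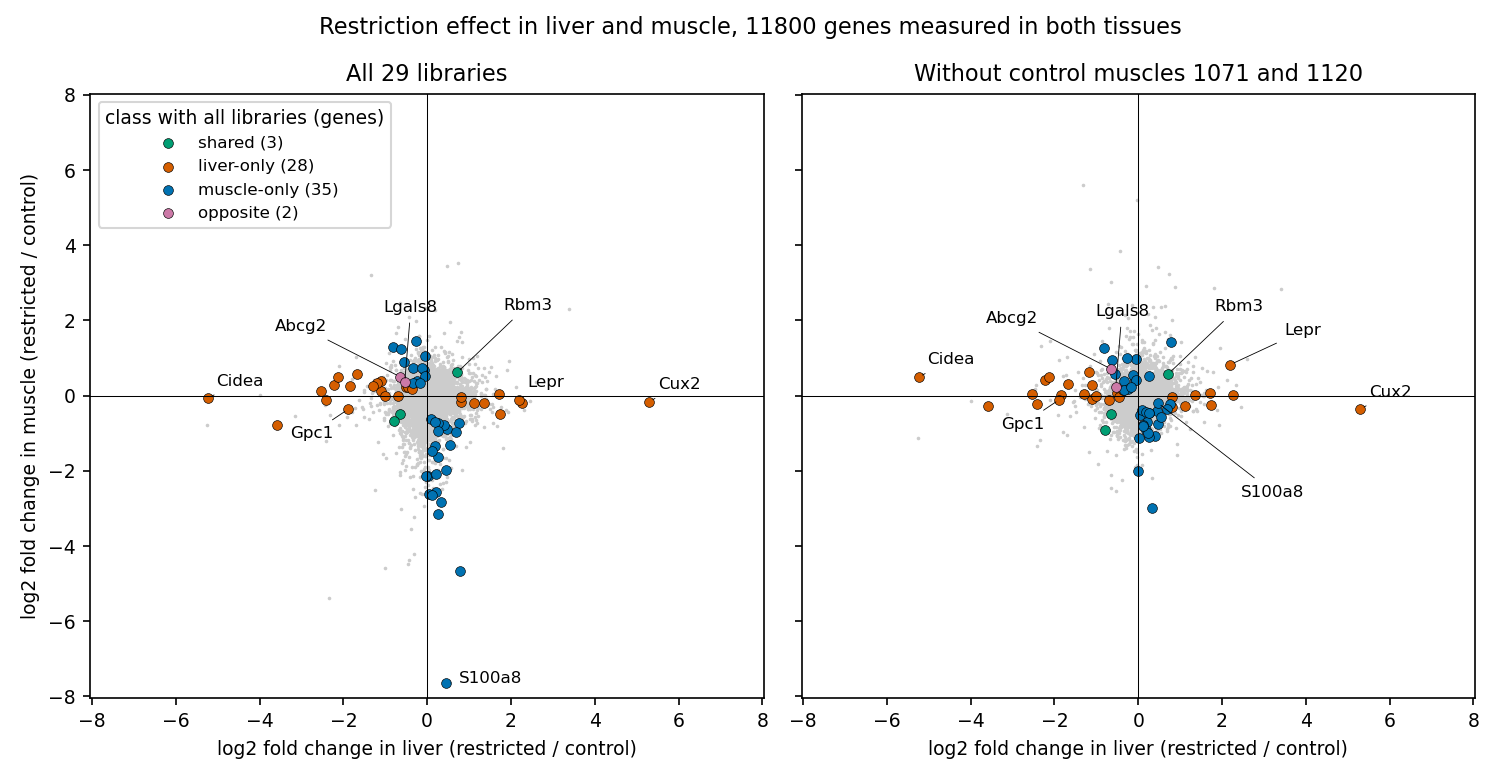
Log2 fold change from control to restriction in liver (horizontal axis) and muscle (vertical axis) for 11800 genes, with all libraries (left) and without control muscles 1071 and 1120 (right); coloured points keep the class they had with all libraries. Liver-only genes such as Cux2 and Cidea stay on the horizontal arm in both panels, while S100a8 moves from -7.65 to -0.19 on the muscle axis.

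Most muscle calls were lost without the control muscles that stood apart, a removal that also left only 2 of 4 control muscles. The part of the smaller control group in that loss was not tested. Without both of them 15 genes (0.105%) passed in muscle in place of 1244, and 13 of the 15 were among the 1244. The tissue difference then passed for 9 genes (0.0631%) in place of 93, and 7 of these were among the 93: Cntnap1, Rnase4, Cidea, Tmem9, Abcg2, Gpc1 and Lgals8. The other 2, Kazald1 and Car8, chosen after their values were seen, passed at tissue differences of -1.79 (adjusted p = 0.0248) and 1.0 (adjusted p = 0.0421). The liver libraries were unchanged by this removal, and liver had 236 calls (1.66%). Without control muscle 1120 alone the count was 14 and muscle had 283 calls, and without control muscle 1071 alone 30 and 391. Leaving out the other 2 control muscles had the opposite effect, with 465 calls without muscle 1095 and 466 without muscle 1121, where muscle had 2223 and 2136. Control livers weighed as much: the tissue difference passed for 9 genes without control liver 1120 and for 19 without control liver 1121. Without soy livers 1073 and 1159 the count was 49 (0.34%), of which 44 were among the 93, with 209 calls in liver (1.45%) and 2260 in muscle (15.7%). Without all 4 libraries it was 11 (0.0774%), with 349 calls in liver (2.45%) and 32 in muscle (0.225%).

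**Figure D3:**
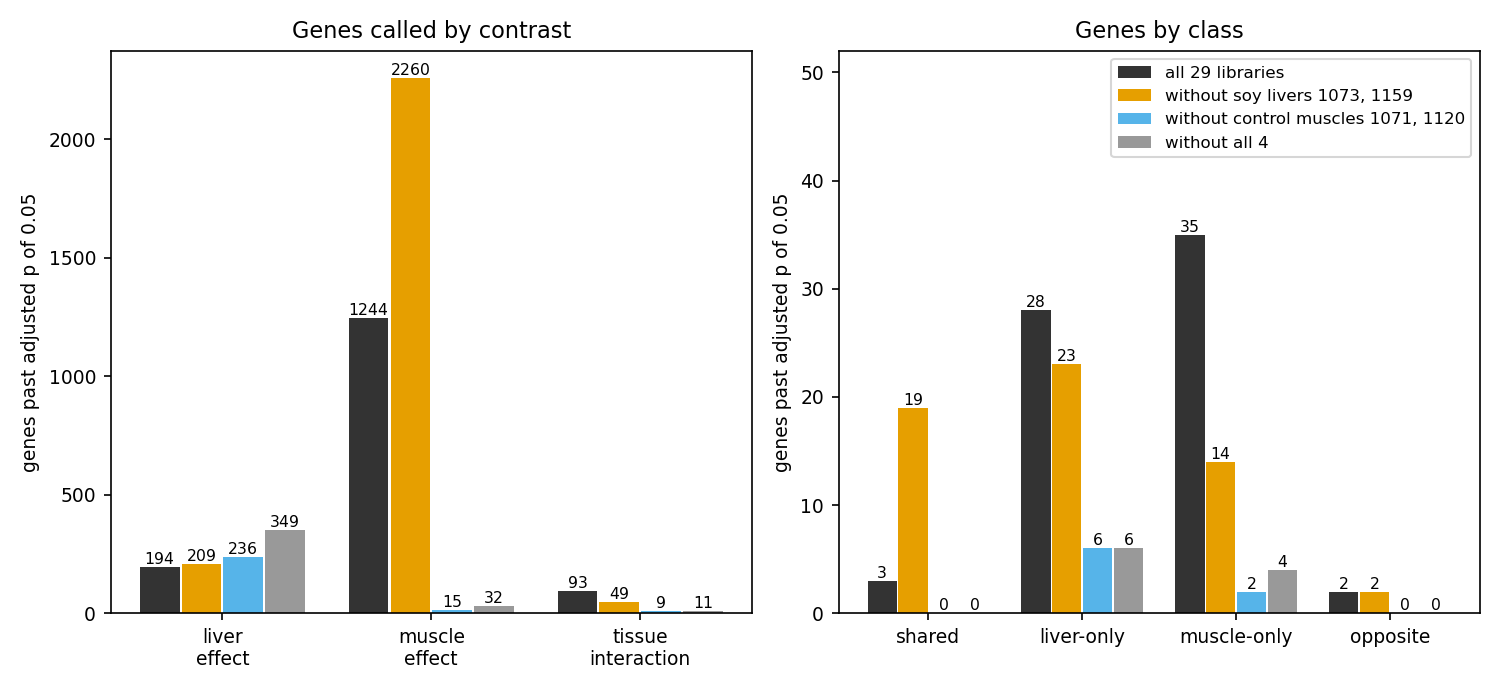
Number of genes past an adjusted p of 0.05 with all libraries and without those that stood apart, for each contrast (left) and each class (right). The muscle effect drops from 1244 to 15 genes and the tissue difference from 93 to 9 without control muscles 1071 and 1120, and no gene is then shared or opposite.

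Over all 11800 genes the changes of the tissues had almost no relation, as a description across genes that are not independent. Spearman's rho of the liver and muscle log2 changes was -0.0422 with all libraries and 0.1881 without control muscles 1071 and 1120. It was 0.2206 without soy livers 1073 and 1159 and 0.1466 without all 4 libraries. The median size of a change was 0.14 in liver and 0.21 in muscle on the log2 scale, and 0.13 in muscle without the control muscles that stood apart. Of 134 genes called in liver 83 had the same sign in muscle, and of 1030 called in muscle 564 had the same sign in liver.

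The opposite class held Lgals8 and Abcg2, both lower in restricted liver and higher in restricted muscle. Lgals8 (ENSMUSG00000057554, chromosome 13, 12439415 to 12464944, GRCm38) encodes galectin-8, a sugar-binding protein that marks damaged endosomes and lysosomes for autophagy. Abcg2 (ENSMUSG00000029802, chromosome 6, 58584523 to 58692869) encodes an efflux transporter for urate, porphyrins and many drugs. RefSeq promoter windows on GRCm38.p6, from 250 bases before to 50 after a transcription start, were found for 2 of 4 genes looked up; Cntnap1 and Gpc1 had none. They are shown because these genes are the pair that moved in opposite directions, and capitals mark matches on either strand to the motifs named after them.
Lgals8, chr13:12461689-12461988, minus strand: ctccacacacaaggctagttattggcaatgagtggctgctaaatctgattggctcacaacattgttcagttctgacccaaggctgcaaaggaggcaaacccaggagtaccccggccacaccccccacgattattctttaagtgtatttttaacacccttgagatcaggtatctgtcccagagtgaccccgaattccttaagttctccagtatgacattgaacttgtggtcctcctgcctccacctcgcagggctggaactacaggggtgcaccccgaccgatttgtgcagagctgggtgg
Abcg2, chr6:58584283-58584582, plus strand: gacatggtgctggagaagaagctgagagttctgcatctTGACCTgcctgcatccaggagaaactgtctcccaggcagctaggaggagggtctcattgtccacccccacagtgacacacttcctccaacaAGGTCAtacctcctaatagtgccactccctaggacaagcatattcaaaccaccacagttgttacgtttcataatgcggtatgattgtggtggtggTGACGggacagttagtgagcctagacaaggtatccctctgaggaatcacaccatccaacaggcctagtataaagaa
Abcg2, chr6:58596422-58596721, plus strand: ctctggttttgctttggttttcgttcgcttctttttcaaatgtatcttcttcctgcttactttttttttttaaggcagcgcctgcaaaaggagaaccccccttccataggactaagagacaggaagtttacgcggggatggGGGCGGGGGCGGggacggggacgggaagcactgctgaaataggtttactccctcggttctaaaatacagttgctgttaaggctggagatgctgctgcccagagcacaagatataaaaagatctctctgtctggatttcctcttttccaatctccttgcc
Abcg2, chr6:58640296-58640595, plus strand: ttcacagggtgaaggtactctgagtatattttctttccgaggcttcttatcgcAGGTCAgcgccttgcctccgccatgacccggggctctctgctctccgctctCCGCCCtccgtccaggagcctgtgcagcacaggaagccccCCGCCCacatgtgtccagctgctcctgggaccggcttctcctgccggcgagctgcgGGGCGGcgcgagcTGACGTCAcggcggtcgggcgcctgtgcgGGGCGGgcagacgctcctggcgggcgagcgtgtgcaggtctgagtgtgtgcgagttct
The letters searched were CACGTG (E-box), TGTTTAC (FoxO element), AGAACA (glucocorticoid receptor half-site), AGGTCA (nuclear receptor half-site), TGACG (cAMP response element half-site) and GGGCGG (GC box), on both strands. Of 32851 promoters of this length 7.15%, 3.65%, 19%, 16.3%, 20.8% and 35.7% hold them, in that order. The Lgals8 window held none of the 6. It lies inside the span given for that gene, whose upstream end was not searched. The first Abcg2 window held 2 nuclear receptor half-sites and 1 cAMP half-site, and the second 2 GC boxes. In the third window there were 4 GC boxes, 1 nuclear receptor half-site and 2 overlapping cAMP half-sites. The read counts do not tell which start was used for either gene.

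Lgals8 stood at 159, 184.5 and 167 CPM in the 3 control livers and at 91.7 to 164 CPM (median 114) in 12 restricted livers. In muscle it stood at 23.6, 28.6, 25.5 and 29.04 CPM in the 4 controls and 29.2 to 40.6 CPM (median 33.5) in 10 restricted libraries. In liver 11 of 12 restricted libraries lay below every control and lard liver 1130 did not, while in muscle all 10 lay above every control. It fell by 0.54 ± 0.087 in liver (log2 fold change ± SE, adjusted p = 0.000749) and rose by 0.35 ± 0.086 in muscle (adjusted p = 0.0127). The tissue difference was -0.89 ± 0.12 (adjusted p = 0.00187). It passed on removal of any single library, at adjusted p up to 0.0192. Without control muscles 1071 and 1120 the tissue difference was -0.78 (adjusted p = 0.0248), but the muscle part alone was 0.24 and did not pass (adjusted p = 0.589). The muscle rise was lost without control muscle 1071 or control muscle 1120 and held in 27 of 29 single removals. With the animal as a block the tissue difference was at an adjusted p of 0.0501. Its exons overlap those of Heatr1 on the opposite strand; the sources used here do not say whether counting used strand.

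Abcg2 stood at 77.9, 104 and 84.3 CPM in control livers and 44.3 to 75.1 CPM (median 55.5) in restricted livers, with no overlap. Control muscles held 16.9, 13.97, 22.9 and 16.4 CPM and restricted muscles 20.96 to 30.2 CPM (median 24.6), where 7 of 10 lay above every control. It fell by 0.64 ± 0.14 in liver (adjusted p = 0.0169) and rose by 0.50 ± 0.15 in muscle (adjusted p = 0.0317), for a tissue difference of -1.15 ± 0.21 (adjusted p = 0.0119). The tissue difference was lost only without control liver 1120 (adjusted p = 0.0766). It was -1.35 without control muscles 1071 and 1120 (adjusted p = 0.0242), with the muscle part at 0.71 (adjusted p = 0.168). With 100% and 100% of its reads unique in liver and muscle, read sharing was minor. The liver fall was lost without control liver 1120 or control liver 1121 and held in 27 of 29 single removals, and the muscle rise was lost without control muscle 1071, control muscle 1095 or control muscle 1121 and held in 26 of 29 single removals.

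**Figure D4:**
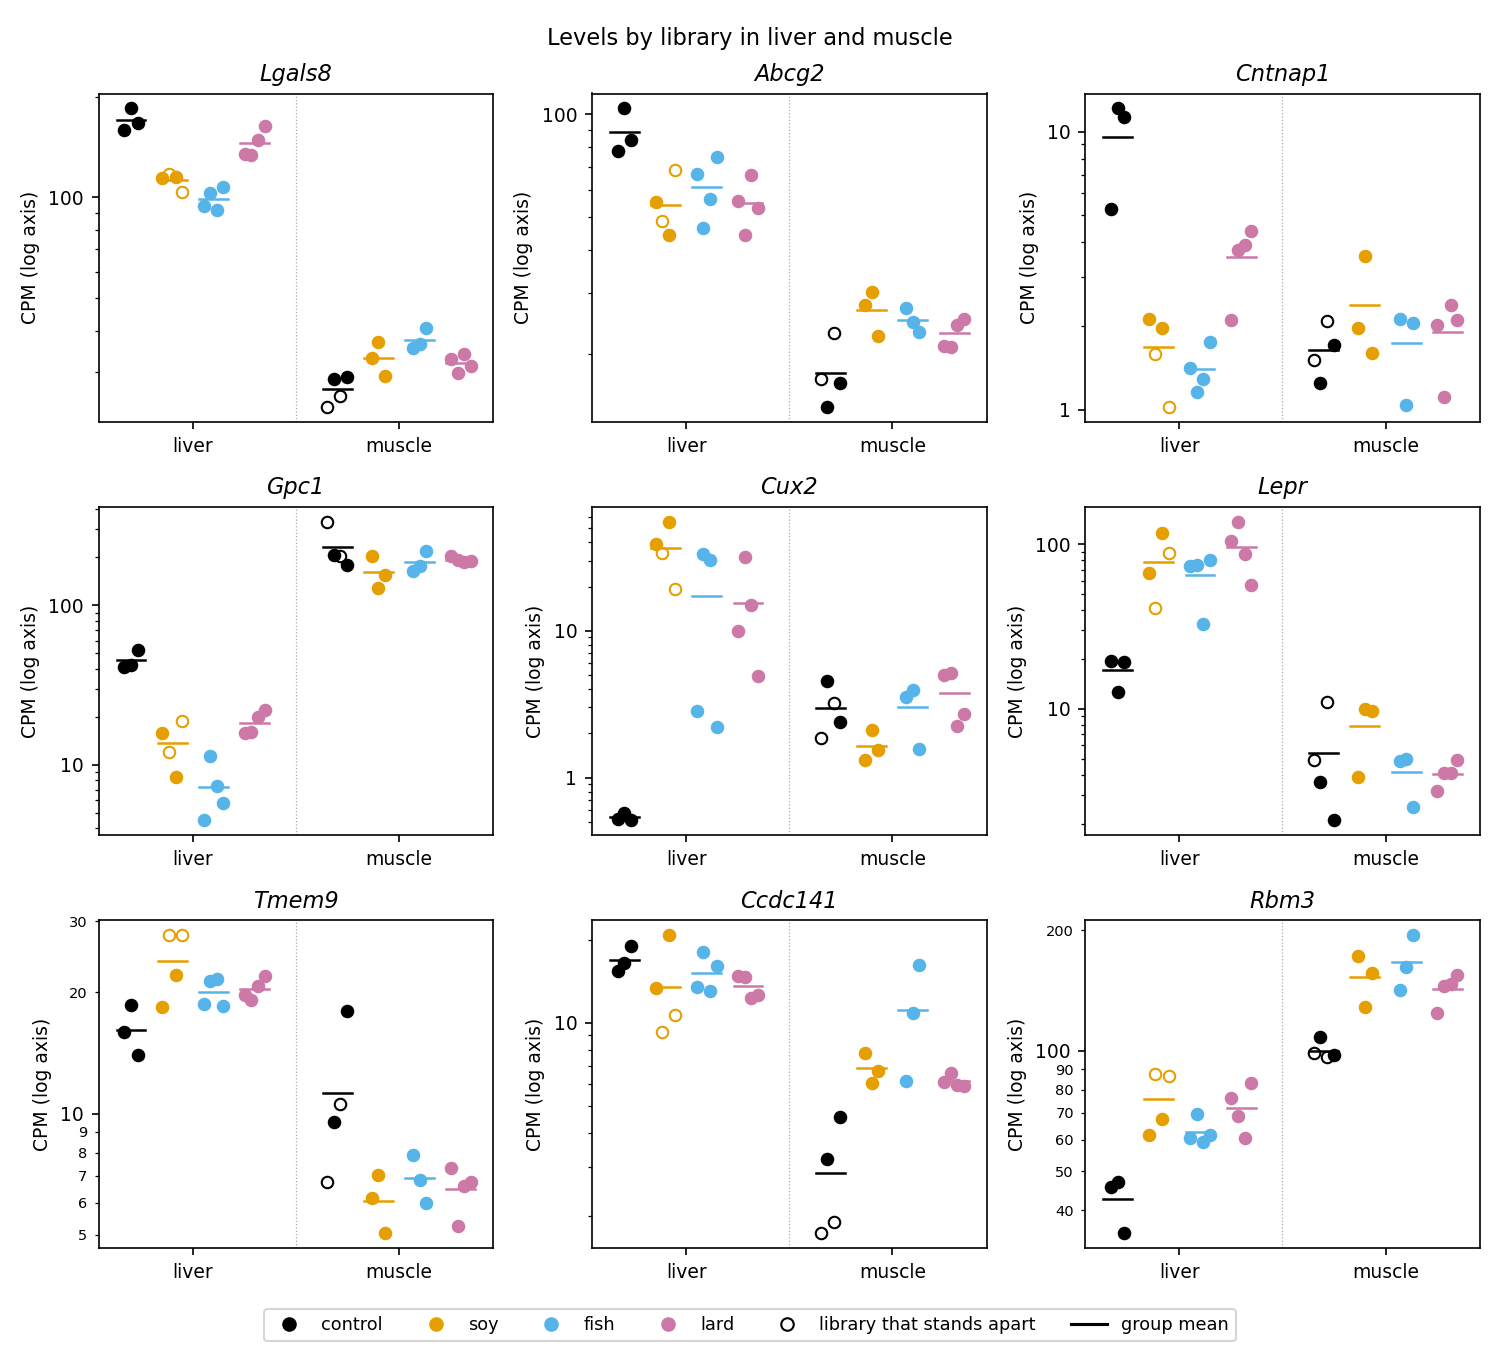
Level of 9 genes in each library (CPM, log axis), liver left and muscle right in each panel, coloured by diet, with group means as lines and open symbols for the 4 libraries that stood apart. Lgals8 and Abcg2 drop in liver and lie higher in muscle, Cux2 and Lepr lie above every control in restricted livers, and Rbm3 lies above every control in both tissues.

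Among the 28 liver-only genes, 19 fell in liver, with a median of -1.29 on the log2 scale against 0.22 in muscle. In 12 of the 19 the control and restricted livers did not overlap. Class members were chosen by tests on these same libraries, so groups without overlap are partly built in. The share of all genes without overlap was not counted, here and for the counts of this kind below. Cntnap1 (ENSMUSG00000017167, chromosome 11, 101170523 to 101190724) encodes contactin-associated protein 1, known from the junctions of axons with myelin. It stood at 5.29, 12.1 and 11.2 CPM in control and 1.02 to 4.39 CPM (median 1.86) in restricted livers, all 12 below every control. In muscle the values were 1.51, 1.25, 2.09 and 1.72 CPM in control and 1.04 to 3.57 CPM (median 2.04) in restricted libraries, which overlapped. The fall in liver was -2.23 ± 0.24 (adjusted p = 2.64e-06) and the tissue difference -2.51 ± 0.38 (adjusted p = 0.00321). It passed on every single removal, without control muscles 1071 and 1120 (-2.65, adjusted p = 0.0255) and with the animal as a block (adjusted p = 0.0336). Its exons overlap those of Plekhh3 on the opposite strand.

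Gpc1 (ENSMUSG00000034220, chromosome 1, 92831645 to 92860198) encodes glypican-1, a heparan sulfate proteoglycan anchored to the cell surface that binds growth factors. Control livers held 41.1, 42.2 and 52.2 CPM and restricted livers 4.50 to 21.9 CPM (median 13.9), with no overlap. Muscle expressed far more, 335, 208, 203 and 179 CPM in control and 128 to 221 CPM (median 187) in restricted libraries, and these overlapped. Gpc1 fell in liver by 1.88 ± 0.20 (adjusted p = 2.00e-06), and its tissue difference was -1.52 ± 0.29 (adjusted p = 0.0194). That difference grew to -1.78 without control muscles 1071 and 1120 (adjusted p = 0.0300), and the highest muscle value was that of control 1071. It was lost without control liver 1120, control liver 1121 or control muscle 1120, at adjusted p up to 0.0879. The exons of Gpc1 overlap those of Ankmy1 on the opposite strand.

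Arsg and Osbpl3 fell in liver as well. Arsg (ENSMUSG00000020604, chromosome 11, 109473374 to 109573330) encodes lysosomal arylsulfatase G, which takes part in the breakdown of heparan sulfate. Its level was 29.2, 39.1 and 31.97 CPM in control and 10.5 to 24.2 CPM (median 16.1) in restricted livers, without overlap. In muscle it was 2.00, 2.36, 1.58 and 1.78 CPM in control and 1.87 to 2.95 CPM (median 2.58) in restricted libraries, with 7 of 10 above every control. The liver fall was -1.10 ± 0.14 (adjusted p = 3.46e-05), the muscle value 0.39 ± 0.18 (adjusted p = 0.169) and the tissue difference -1.49 ± 0.23 (adjusted p = 0.00321).

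Osbpl3 (ENSMUSG00000029822, chromosome 6, 50293330 to 50456201) encodes an oxysterol-binding-protein relative that works where membranes meet. It stood at 9.60, 36.3 and 44.5 CPM in control and 2.34 to 13.6 CPM (median 5.10) in restricted livers, with 11 of 12 below every control, and at 2.82, 3.68, 2.79 and 2.64 CPM in control and 2.01 to 5.04 CPM (median 2.96) in restricted muscles. The tissue difference was -2.66 ± 0.44 (adjusted p = 0.00710). The calls of Arsg and Osbpl3 held on every single removal. Without control muscles 1071 and 1120 the sizes were -1.38 and -2.58, at adjusted p of 0.0648 and 0.0728. With the animal as a block Osbpl3 was at an adjusted p of 0.0700. Exons of Arsg overlap those of Slc16a6 on the opposite strand.

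Aqp4 (ENSMUSG00000024411, chromosome 18, 15389394 to 15403684), a water channel of muscle fibre and brain membranes, was at 17.6, 28.5 and 19.5 CPM in control and 2.72 to 20.2 CPM (median 5.85) in restricted livers, with 11 of 12 below every control. Restricted muscles held 18.03 to 49.1 CPM (median 30.3), against 7.58, 32.04, 25.3 and 18.9 CPM in controls, so the groups overlapped there. The tissue difference was -2.27 ± 0.40 (adjusted p = 0.0113). It was lost only without control liver 1120 among single removals (adjusted p = 0.0724), and reached 0.0647 without control muscles 1071 and 1120.

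Cidea, which drives the growth of lipid droplets, had the largest fall in liver among the liver-only genes, at a very low level; it was chosen after its values were seen. Control livers held 0.653, 3.56 and 4.86 CPM and restricted livers 0 to 0.371 CPM (median 0.0662), all 12 below every control. Its muscle levels were 0.827, 1.18, 3.17 and 0.858 CPM in control and 0.459 to 2.17 CPM (median 1.58) in restricted libraries. Its tissue difference was -5.17 ± 0.77 (adjusted p = 0.00321), -5.74 without control muscles 1071 and 1120 (adjusted p = 0.0121). Rnf170 (ENSMUSG00000013878), a ubiquitin ligase of the endoplasmic reticulum, fell by 0.71 in liver with a tissue difference of -0.69 ± 0.14 (adjusted p = 0.0311). Only 86.2% of its liver reads and 57.3% of its muscle reads were unique, and on unique reads alone the liver value was 0.0028 and the tissue difference 0.047, so its call is uncertain. The tissue difference was lost without control muscle 1071, control liver 1120, control muscle 1120, soy muscle 1141 or control liver 1121 and held in 24 of 29 single removals. The other liver-only genes that fell include Insig2, which holds the sterol sensor complex in the endoplasmic reticulum (liver -1.09, muscle 0.11). Scara5, a ferritin receptor, had values of -2.41 and -0.12 and the receptor tyrosine kinase gene Ephb2 of -3.57 and -0.77, both below 1 CPM on average in liver. The rest were Agap2, Ankrd46, Eps8l2, Zfp979, Cryz, Kdm4a, Rarres1, Gprc5b and Asb13.

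Of the 9 liver-only genes that rose, 8 showed no overlap between control and restricted livers, and their median change was 1.72 in liver and -0.17 in muscle. Cux2 (ENSMUSG00000042589, chromosome 5, 121857963 to 122050102) encodes a homeobox factor that in mouse liver is a female-biased regulator. In control livers it was near the lower limit, at 0.522, 0.570 and 0.511 CPM, and restricted livers held 2.23 to 55.4 CPM (median 24.7). The lowest restricted livers were fish livers 1125 and 1067, and even these lay above every control. In muscle the level was 1.86, 4.52, 3.23 and 2.38 CPM in control and 1.31 to 5.12 CPM (median 2.49) in restricted libraries. Cux2 rose by 5.30 ± 0.88 in liver (adjusted p = 0.000849) and its tissue difference was 5.46 ± 1.03 (adjusted p = 0.0170). The difference was 5.66 without control muscles 1071 and 1120, at an adjusted p of 0.0707, and was lost without control liver 1120 or 1121 (adjusted p up to 0.0917). It passed with the animal as a block (adjusted p = 0.0296).

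Lepr (ENSMUSG00000057722, chromosome 4, 101717404 to 101815352) encodes the leptin receptor, whose soluble form the liver releases. Control livers held 19.7, 12.6 and 19.2 CPM and restricted livers 32.6 to 137 CPM (median 77.6), all 12 above every control. Muscle held 4.89, 3.62, 11.1 and 2.11 CPM in control and 2.55 to 10.04 CPM (median 4.47) in restricted libraries, spread over the same range. The rise in liver was 2.20 ± 0.40 (adjusted p = 0.00290) and the tissue difference 2.30 ± 0.51 (adjusted p = 0.0397). The tissue part was less firm than the liver part: it held in 12 of 29 single removals, and was 1.37 without control muscles 1071 and 1120 (adjusted p = 0.726). In that setting the muscle value of Lepr went from -0.10 to 0.83 and did not pass (adjusted p = 0.742). The liver rise held in 28 of 29.

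Rnase4 (ENSMUSG00000021876, chromosome 14, 51091077 to 51106151), a secreted ribonuclease that shares exons with Ang on the same strand, was at 686.5, 716 and 788 CPM in control and 1004 to 1521 CPM (median 1255) in restricted livers, without overlap. In muscle it was at 38.7, 50.3, 56.4 and 63.5 CPM in control and 38.1 to 63.4 CPM (median 45.4) in restricted libraries. The liver rise was 0.80 ± 0.16 (adjusted p = 0.00510) and the tissue difference 0.97 ± 0.20 (adjusted p = 0.0311), or 1.09 without control muscles 1071 and 1120 (adjusted p = 0.0487). The difference was lost without lard liver 1100, control liver 1095, control liver 1120, control muscle 1120, soy muscle 1141 or control liver 1121 and held in 23 of 29 single removals.

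Pla2g16 (ENSMUSG00000060675), a phospholipase best known from fat tissue, was at 4.90, 6.84 and 8.38 CPM in control and 9.89 to 25.6 CPM (median 13.1) in restricted livers, and at 208 CPM on average in muscle. Its tissue difference was 1.31 ± 0.30 (adjusted p = 0.0410) and held in 9 of 29 single removals. Fam177a (ENSMUSG00000095595) was at 5.22, 3.85 and 4.35 CPM in control and 6.01 to 9.24 CPM (median 8.18) in restricted livers, with a tissue difference of 0.86 ± 0.18 (adjusted p = 0.0285) and 68.3% unique reads in liver. That call was lost without control muscle 1071, control liver 1120, control muscle 1120 or control liver 1121 and held in 25 of 29 single removals. The remaining risers were Enho, which encodes the peptide adropin (liver 2.27, muscle -0.20), Hddc2, the G protein subunit gene Gng7 and Gm3839. Without control muscles 1071 and 1120 the tissue differences of Fam177a and Pla2g16 were 0.85 and 1.41, at adjusted p of 0.148 and 0.148. With the animal as a block the adjusted p was 0.0571 for Rnase4, 0.215 for Lepr, 0.101 for Pla2g16, 0.118 for Fam177a and 0.136 for Rnf170. All 28 liver-only genes kept the sign of their tissue difference without control muscles 1071 and 1120, at a median of 0.96 of its size, while 4 passed. That removal left the liver libraries as they were, so it tested only the muscle part of these differences. The genes were chosen for a change in liver, so sign and size were largely set in advance.

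In muscle 35 genes were muscle-only, and the larger part fell. The 23 that fell had a median of -1.63 in muscle and 0.25 in liver, and without control muscles 1071 and 1120 the muscle median was -0.56. In 4 of the 23 the control and restricted muscles did not overlap. Tagln2 (ENSMUSG00000026547, chromosome 1, 172500047 to 172507380), an actin-binding protein of contractile and immune cells, was at 28.6, 23.7, 40.8 and 26.3 CPM in control and 14.2 to 23.8 CPM (median 17.3) in restricted muscles, with 9 of 10 below every control. In liver it was at 13.3, 11.8 and 13.4 CPM in control and 12.3 to 19.9 CPM (median 15.6) in restricted libraries. It fell by 0.72 ± 0.12 in muscle (adjusted p = 0.000617), with a tissue difference of 0.98 ± 0.18 (adjusted p = 0.0151). In the absence of control muscles 1071 and 1120 the muscle value was -0.47 (adjusted p = 0.170). Its tissue difference was lost only without control liver 1120 among 29 single removals.

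Anxa1 (ENSMUSG00000024659, chromosome 19, 20373428 to 20390944) encodes annexin A1, a glucocorticoid-induced protein that restrains inflammation. Control muscles held 35.7, 35.9, 69.6 and 52.7 CPM and restricted muscles 19.2 to 38.3 CPM (median 24.6), 9 of 10 below every control. In liver 11 of 12 restricted libraries lay above every control, at 2.97 to 6.83 CPM (median 4.83) against 3.27, 3.71 and 3.71 CPM. Its tissue difference was 1.36 ± 0.31 (adjusted p = 0.0421; 0.0227 with the animal as a block), and it held in 9 of 29 single removals.

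Postn (ENSMUSG00000027750, chromosome 3, 54361109 to 54391034), the matrix protein periostin, was at 15.1, 16.7, 32.3 and 8.84 CPM in control and 5.32 to 17.4 CPM (median 10.1) in restricted muscles, and at 8.03, 10.1 and 10.6 CPM in control and 13.7 to 21.04 CPM (median 16.1) in restricted livers. All 12 restricted livers lay above every control, at a liver value of 0.76 ± 0.26 that did not pass (adjusted p = 0.218). The muscle value was -0.73 ± 0.22 (adjusted p = 0.0396) and -0.21 without control muscles 1071 and 1120, and the tissue difference was 1.49 ± 0.35 (adjusted p = 0.0438), which held in 6 of 29 single removals.

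Tmem9 (ENSMUSG00000026411, chromosome 1, 136008219 to 136035030), a lysosomal membrane protein, was the muscle-only gene whose fall held without the libraries that stood apart. It was at 6.75, 9.52, 10.6 and 18.02 CPM in control and 5.04 to 7.90 CPM (median 6.70) in restricted muscles, and control muscle 1071 was the only control within the restricted range. In liver it was at 15.9, 18.6 and 13.9 CPM in control and 18.4 to 27.8 CPM (median 21.02) in restricted libraries. The muscle fall was -0.79 ± 0.16 (adjusted p = 0.00455) and -1.08 without control muscles 1071 and 1120 (adjusted p = 0.00539). Over the same settings its tissue difference went from 1.19 ± 0.25 (adjusted p = 0.0305) to 1.49 (adjusted p = 0.0121), and control muscle 1121 was the highest of the remaining libraries. It was lost in 5 of 29 single removals, those of control livers 1095, 1120 and 1121, control muscle 1120 and soy muscle 1141, at adjusted p up to 0.122.

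Ces2g, a carboxylesterase chosen here after its values were seen, was at 2.13, 1.46, 3.93 and 2.11 CPM in control and 0.521 to 1.48 CPM (median 0.991) in restricted muscles, with a tissue difference of 1.52 ± 0.26 (adjusted p = 0.00921). That call held on every single removal but not without both control muscles that stood apart (adjusted p = 0.144). Ube2r2 (ENSMUSG00000036241), a ubiquitin-conjugating enzyme, fell by 0.62 ± 0.11 in muscle, with a tissue difference of 0.70 ± 0.17 (adjusted p = 0.0499) that held in 5 of 29 single removals. Its level was 227, 155, 172 and 135 CPM in control and 89.2 to 144 CPM (median 114.5) in restricted muscles.

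The larger falls of the muscle-only class were of blood cell genes that moved with control muscles 1071 and 1120; this grouping was made after their values were seen. S100a8, a calcium-binding protein of neutrophils, was at 73.2, 0.487, 264 and 0.462 CPM in control and 0.112 to 1.49 CPM (median 0.230) in restricted muscles, so only those controls were high. Its muscle value was -7.65 with all libraries and -0.19 without them, and its tissue difference (adjusted p = 0.0499) held in 3 of 29 single removals. For the antibody genes Igha and Ighg2c the values were -4.65 and -2.84 with all libraries and 1.44 and -2.99 without them. Car1, the red cell carbonic anhydrase, went from -3.14 to 0.52, Plac8 from -2.55 to -0.70 and the myeloid lectin gene Clec12a from -2.63 to -0.80. The signalling genes Lcp2, Acap1, Fes and Klhl6, the platelet integrin gene Itgb3 and Alox5ap of leukotriene synthesis belong to the same class, with muscle values of -2.13, -2.61, -0.94, -1.48, -1.99 and -1.31. The same values without those muscles were -1.13, -0.51, -0.46, -0.78, -0.42 and -0.56, in the same order. Apobr, Wfdc21, Sox12 and Exoc3l also fell.

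Of the 12 muscle-only genes that rose, 7 showed no overlap between control and restricted muscles, at a median of 0.74 in muscle and -0.25 in liver, and 0.49 in muscle without control muscles 1071 and 1120. Ccdc141 (ENSMUSG00000044033, chromosome 2, 77009902 to 77170636) was at 1.72, 3.20, 1.90 and 4.55 CPM in control and 5.92 to 16.3 CPM (median 6.36) in restricted muscles, all 10 above every control. In liver it was at 15.4, 16.5 and 18.9 CPM in control and 9.24 to 20.8 CPM (median 13.4) in restricted libraries. Its rise was 1.44 ± 0.25 (adjusted p = 0.00122) and its tissue difference -1.71 ± 0.33 (adjusted p = 0.0194), or -1.26 without control muscles 1071 and 1120 (adjusted p = 0.299). That call was lost without control muscle 1071, control liver 1120, control muscle 1120 or control liver 1121 and held in 25 of 29 single removals.

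Ppp1r3c (ENSMUSG00000067279, chromosome 19, 36731737 to 36736653) encodes a subunit that brings protein phosphatase 1 to glycogen and favours glycogen synthesis. Control muscles held 154, 122, 98.2 and 267 CPM and restricted muscles 212 to 627.5 CPM (median 407), 8 of 10 above every control. In liver the values were 37.3, 42.8 and 21.2 CPM in control and 10.4 to 45 CPM (median 19.8) in restricted libraries, 7 of 12 below every control. It rose by 1.24 ± 0.29 in muscle (adjusted p = 0.00995), the liver value was -0.63 ± 0.29 (adjusted p = 0.454), and the tissue difference was -1.87 ± 0.40 (adjusted p = 0.0370). On leaving out control muscles 1071 and 1120 these were 0.96 in muscle and -1.59 for the difference (adjusted p = 0.390), which held in 20 of 29 single removals of libraries.

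Mtx3 (ENSMUSG00000021704), a metaxin of the outer mitochondrial membrane, was at 12.4, 20.4, 14.4 and 20.2 CPM in control and 23.1 to 31.2 CPM (median 26.2) in restricted muscles, without overlap, and rose by 0.69 ± 0.12. Ginm1 (ENSMUSG00000040006) was at 54.4, 67.3, 56.2 and 61.4 CPM in control and 71.1 to 85.05 CPM (median 75.5) in restricted muscles, also without overlap, and rose by 0.34 ± 0.075. Mgea5 (ENSMUSG00000025220), the enzyme that removes the sugar O-GlcNAc from proteins, rose by 0.34 ± 0.094 in muscle, while its liver value was -0.33 ± 0.099 (adjusted p = 0.119). Only 52.5% of its muscle reads were unique. The tissue differences of these 3 were -0.76 ± 0.17, -0.52 ± 0.11 and -0.67 ± 0.14, at adjusted p of 0.0379, 0.0311 and 0.0285. The call of Mtx3 held in 16 of 29 single removals, that of Ginm1 was lost without control muscle 1071, fish muscle 1123, control liver 1120, control muscle 1120, soy muscle 1141 or control liver 1121 and held in 23 of 29 single removals, and that of Mgea5 was lost without control muscle 1071, control liver 1095, control liver 1120, control muscle 1120 or soy muscle 1141 and held in 24 of 29 single removals. Ginm1 and Mgea5 share exonic sequence with opposite-strand genes. Adhfe1 and Ak4 of mitochondria, the growth factor receptor gene Met, Fam228b, Stxbp4, Gucd1 and Mtif2 complete the 12, with muscle values of 0.75, 1.05, 0.73, 1.30, 0.89, 0.51 and 0.40. Met, Stxbp4 and Mtif2 were, without control muscles 1071 and 1120, at 0.39, 0.57 and 0.17.

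Without control muscles 1071 and 1120, 33 of the 35 muscle-only genes kept the sign of their tissue difference, at a median of 0.68 of its size, and 1 passed. Blocked by animal, 1 passed, and the adjusted p of the named genes was 0.101 for Tagln2, 0.0571 for Tmem9, 0.148 for Postn, 0.0948 for Ces2g and 0.332 for Ube2r2. For the risers it was 0.0915 for Ccdc141, 0.100 for Ppp1r3c, 0.185 for Mtx3, 0.223 for Ginm1 and 0.192 for Mgea5.

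Only 3 genes passed in both tissues in the same direction. Rbm3 (ENSMUSG00000031167, chromosome X, 8138975 to 8145880), an RNA-binding protein induced by cold, rose in both. It stood at 45.7, 46.95 and 34.98 CPM in control and 59.3 to 87.2 CPM (median 68.1) in restricted livers, and at 98.5, 108, 96.6 and 97.3 CPM in control and 124 to 194.5 CPM (median 150.5) in restricted muscles. All 12 restricted livers and all 10 restricted muscles lay above every control of their tissue. The rise was 0.72 ± 0.13 in liver (adjusted p = 0.00292) and 0.62 ± 0.12 in muscle (adjusted p = 0.00239). Its tissue difference was 0.10 ± 0.17, with an approximate 95% interval of -0.23 to 0.43. Once control muscles 1071 and 1120 were left out, the muscle rise was 0.58, nearly the same size, at an adjusted p of 0.184. Only 45.1% and 26.7% of its reads in liver and muscle were unique, and its exons overlap Rbm3os on the opposite strand.

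Lasp1 and Dock8 fell in both tissues. Lasp1 (ENSMUSG00000038366, chromosome 11, 97799000 to 97838764), an actin-binding adaptor, was at 105, 69.5 and 84.4 CPM in control and 40.5 to 76.95 CPM (median 55.7) in restricted livers, and at 21.97, 20.5, 23.8 and 24.6 CPM in control and 11.2 to 22 CPM (median 16.8) in restricted muscles. In liver 11 of 12 and in muscle 9 of 10 restricted libraries lay below every control. It fell by 0.64 ± 0.15 and 0.49 ± 0.14 (adjusted p = 0.0225 and 0.0364). Dock8 (ENSMUSG00000052085, chromosome 19, 24999529 to 25202432), an activator of the GTPase Cdc42 in immune cells, was at 55.1, 43.2 and 37.7 CPM in control and 14.6 to 43.7 CPM (median 26.5) in restricted livers. In muscle it was at 6.20, 7.30, 6.46 and 11.02 CPM in control and 3.71 to 5.80 CPM (median 4.67) in restricted libraries, without overlap. Its falls were 0.78 ± 0.17 and 0.67 ± 0.18 (adjusted p = 0.0125 and 0.0196). The approximate 95% intervals of the tissue difference were -0.58 to 0.26 for Lasp1 and -0.61 to 0.38 for Dock8, which leaves room for sizeable differences. With control muscles 1071 and 1120 removed, the muscle values were -0.48 and -0.91, at adjusted p of 0.519 and 0.121. In single removals the muscle call held in 21 of 29 for Lasp1 and 28 of 29 for Dock8, and the liver call in 27 and 27. Without soy livers 1073 and 1159 the class held 19 genes.

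Of the 93 calls, 19 were of genes measured in liver only and 2 in muscle only, that is, the gene was below the level needed to be measured in the other tissue. Genes of the major urinary proteins, pheromone carriers made by male liver, fell steeply. Mup15 was at 73.8, 231 and 307 CPM in control and 0.184 to 4.06 CPM (median 0.994) in restricted livers, and Mup17 at 86.01, 299 and 535 CPM in control and 2.06 to 21.8 CPM (median 9.29) in restricted livers. No restricted liver reached a control. The liver falls were -7.13 ± 0.47 and -4.82 ± 0.44 (adjusted p = 3.31e-10 and 1.58e-07), and the tissue differences -7.33 ± 1.35 and -5.96 ± 1.43 (adjusted p = 0.0151 and 0.0497). In muscle both stayed at or below 1.18 CPM. Only 5.78% and 21.6% of their liver reads were unique, so the share of each paralog is uncertain. The tissue difference of Mup15 was lost without soy muscle 1065 or soy muscle 1141 and held in 27 of 29 single removals, and that of Mup17 held in 8 of 29 single removals. In the fit blocked by animal the adjusted p of Mup17 was 0.0653.

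Other one-tissue calls rested on single muscles or on traces. Clec1b, a platelet receptor, was at 3.23 CPM in control muscle 1120 and at 0.344 CPM or less in the other muscles, while livers held 8.29 to 18.4 CPM. Cks2, a cell cycle kinase partner, was at 3.68 CPM in control muscle 1120 and 0.827 CPM or less elsewhere in muscle. Their tissue differences of 5.07 and 3.24 became 2.28 and 0.87 without control muscles 1071 and 1120. The small GTPase gene Rab40b was at 0, 0.214 and 0.0639 CPM in control and 0.184 to 0.773 CPM (median 0.446) in restricted livers, a few reads per library, with a tissue difference of 2.66 ± 0.53 (adjusted p = 0.0279). Blocked by animal, the adjusted p was 0.154 for Clec1b, 0.227 for Cks2 and 0.164 for Rab40b. The call of Clec1b was lost without control liver 1120 or control muscle 1120 and held in 27 of 29 single removals, that of Rab40b was lost without control liver 1095 or control liver 1121 and held in 27 of 29 single removals, and that of Cks2 held in 21 of 29 single removals. The blood cell genes S100a9, Cebpe, Klf1, Nfe2, Ly6c2 and Ighg2b and the dividing cell genes Birc5 and Ccnb2 had muscle values from -9.35 for S100a9 to -3.54 for Klf1, and from -2.15 for Cebpe to 1.56 for Ighg2b without control muscles 1071 and 1120.

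Gene groups are described by counts and medians, and no test of a group's tissue difference was run. Over all 11800 genes the median change was 0.0065 in liver and -0.018 in muscle, 6.08% were lower in muscle and 2.65% higher, and 0.839% and 0.297% in liver. With control muscles 1071 and 1120 left out, 2 of these genes were higher and 9 lower in muscle by edgeR's test. Of 37 collagen and matrix genes 17 fell in muscle and 0 in liver, at medians of -0.61 and -0.14. Among them were the fibrillar collagen genes Col1a1 at -1.18 and Col3a1 at -0.98, the basement membrane gene Col4a1 at -0.57, the collagen chaperone gene Serpinh1 at -0.73 and Sparc at -0.77. Of these genes 1, Postn, passed the tissue difference. In the absence of control muscles 1071 and 1120 the muscle median was -0.52, 1 member passed, and Col3a1 was at -1.24 and Col1a1 at -0.25. The median tissue difference of the group was 0.45 with all libraries and 0.44 without those muscles. Markers of fibroblasts, which overlap this group, summed to 4010 to 6968 CPM in control and 3368 to 4152 CPM in restricted muscles.

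Antigen presentation by MHC class II was the group with the lowest median in muscle. Of 8 genes 6 fell in muscle and 0 in liver, at medians of -1.13 and -0.12. Cd74, the invariant chain, fell by 1.46, H2-Ab1 by 1.25, H2-Eb1 by 1.22 and the protease gene Ctss by 0.99. None of the 8 passed the tissue difference. On leaving out control muscles 1071 and 1120 the muscle median was -0.91 and 0 passed. Macrophage markers moved with them in muscle: 6 of 14 fell, and their sum was 138.7 to 207.7 CPM in control and 46.2 to 181.7 CPM in restricted muscles. In liver it was 592.4 to 782.7 CPM in control and 488.0 to 1196 CPM in restricted libraries. Lymphocyte markers fell in muscle for 8 of 11 tested, and their sum was 136.9 to 319.2 CPM in control and 32.3 to 125.0 CPM in restricted muscles. Without control muscles 1071 and 1120 the median muscle change of the tested markers went from -2.42 to -0.070 for lymphocytes and from -0.79 to -0.64 for macrophages. The summed lymphocyte markers of the remaining control muscles 1095 and 1121 were still at 136.9 and 319.2 CPM, above every restricted muscle. The part of these cell types in the result was not tested.

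Genes of the cell cycle fell in muscle for 9 of 23, with Mki67 at -4.37 and Top2a at -4.20, and the median of -0.47 became 0.079 without control muscles 1071 and 1120, the libraries high in marrow markers, where 0 of the 23 passed. The direction of this group in muscle thus depends on those libraries. The same holds for oxidative phosphorylation, where the muscle median went from -0.20 to 0.0030, and for the proteasome, where it went from -0.15 to 0.023. For cytosolic ribosomal proteins it went from -0.0099 to 0.32. In liver oxidative phosphorylation, the proteasome and the ribosomal proteins had medians of 0.23, 0.17 and 0.39, which were 0.039, 0.012 and 0.18 without soy livers 1073 and 1159. No gene of these 3 groups passed in liver.

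Cholesterol synthesis genes had medians of 0.53 in liver and 0.25 in muscle over 25 genes, above all genes in both. Hsd17b7, an enzyme of the later steps, rose in muscle by 0.75 (adjusted p = 0.0406) and was at 0.36 in liver (adjusted p = 0.640). Its tissue difference did not pass (adjusted p = 0.492), and the muscle value was 0.28 without control muscles 1071 and 1120 (adjusted p = 0.917). Of 30 genes of fatty acid and triglyceride synthesis 3 rose in muscle, Elovl6, Acaca and Fasn, and 1 in liver, the phosphatidate phosphatase gene Lpin1 by 1.39. Elovl6 also passed in muscle without control muscles 1071 and 1120, while Acaca and Fasn were at 1.14 and 2.01 and did not (adjusted p = 0.247 and 0.353). Elovl6, which elongates palmitate, was chosen after its values were seen. Control muscles held 5.30, 3.75, 9.63 and 3.37 CPM and restricted muscles 7.29 to 49.9 CPM (median 24.99), 9 of 10 above every control. Livers held 145, 209 and 200.5 CPM in control and 81.4 to 501 CPM (median 216) in restricted libraries, on both sides of the controls, with all 4 lard livers above them. Its muscle rise was 2.28 ± 0.42 (adjusted p = 0.00166) and grew to 2.92 without control muscles 1071 and 1120 (adjusted p = 0.0415). Its tissue difference was -2.09 ± 0.53 and did not pass (adjusted p = 0.0647). Its exons overlap those of Gm35986 on the opposite strand.

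In the clock group Arntl and Bhlhe41 fell in liver by 1.30 and 1.50, and Per1, Per3, Nr1d2 and Wee1 rose in muscle by 0.79, 1.04, 0.51 and 0.72, with 0 of 20 past the tissue difference. Those 4 muscle values were, without control muscles 1071 and 1120, 0.34, 0.56, 0.22 and 0.44, and none passed (adjusted p from 0.706 to 0.800). Of 24 glucocorticoid and FoxO targets 4 rose in muscle, the growth brakes Ddit4 and Sesn1 and the transcription factors Klf15 and Per1, and 1, the neutrophil gene Lcn2, fell. Their median was 0.51 in muscle and 0.19 in liver, and 0.27 in muscle without control muscles 1071 and 1120, where 0 of the 24 passed and Lcn2 went from -4.58 to -0.24. Of 38 genes of amino acid breakdown 6 rose in muscle, among them Dbt and Aldh6a1 of branched-chain breakdown at 0.52 and 0.67. Without those muscles 0 of the 38 passed, with Dbt at 0.52 (adjusted p = 0.184) and Aldh6a1 at 0.50 (adjusted p = 0.192). In liver 1 rose, the aspartate aminotransferase gene Got1, by 1.16. The 20 genes of the integrated stress response had medians of 0.29 in muscle and -0.011 in liver, and the muscle median was 0.67 without those muscles. Of this group Psat1 and Aldh1l2 rose in muscle by 1.57 and 1.53, and without those muscles they were at 1.73 and 1.58 and did not pass (adjusted p = 0.480 and 0.381).

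The remaining groups held few calls. The lipid droplet group had 1 gene past the tissue difference, Cidea, and the glucose and glycogen group 1, Ppp1r3c. Matrix genes had Postn, and each of the other lists had 0. Medians in liver and muscle were -0.11 and -0.054 for PPAR targets and fatty acid oxidation, 0.024 and 0.15 for the insulin and growth hormone axis, and -0.044 and -0.21 for heat shock chaperones. They were 0.034 and -0.12 for antioxidant genes, -0.14 and -0.27 for interferon-stimulated genes, -0.069 and -0.050 for autophagy and 0.0030 and -0.012 for energy sensors. In muscle the sign of the insulin and growth hormone, antioxidant, energy sensor and glucose groups turned without control muscles 1071 and 1120, at medians of -0.00068, 0.0068, 0.0052 and 0.0033.

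**Figure D5:**
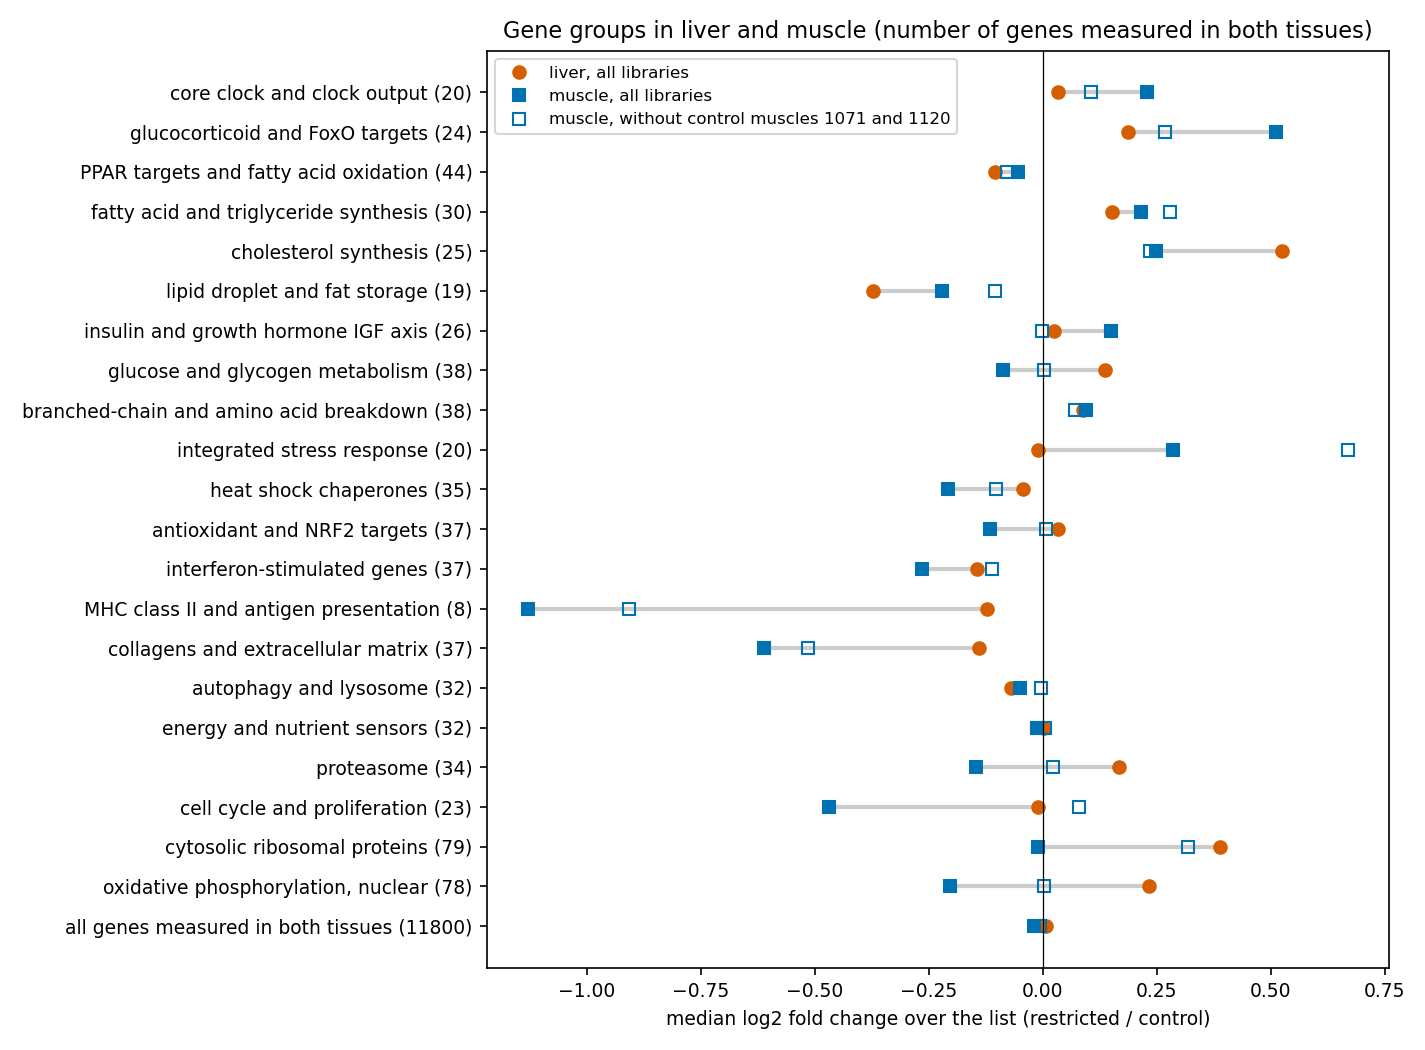
Median log2 fold change from control to restriction over each gene group, for liver, for muscle, and for muscle without control muscles 1071 and 1120. MHC class II and matrix genes lie lowest in muscle in both settings, while the cell cycle median moves from -0.47 to 0.079.

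Each diet was also set against control by itself, and these comparisons share the control libraries. The tissue difference passed for 103 genes with soybean oil (0.728%), 24 with fish oil (0.17%) and 0 with lard (0.0%) by edgeR's quasi-likelihood test, where lard had 1258 genes at an unadjusted p under 0.05 and a smallest adjusted p of 0.1035. In the same order, liver had 355, 64 and 112 calls (2.51%, 0.452% and 0.792%) and muscle 128, 378 and 315 (0.905%, 2.67% and 2.23%). With soybean oil, fish oil and lard in that order, the tissue difference of Lgals8 was -0.90, -1.27 and -0.49, and of Abcg2 -1.32, -1.05 and -1.07. In liver alone the Lgals8 values were -0.60, -0.78 and -0.23, so lard livers lay nearest to control. For Cntnap1 the tissue differences were -3.04, -2.83 and -1.65, for Gpc1 -1.20, -2.33 and -1.03 and for Cux2 6.94, 4.97 and 4.48. Lepr gave 1.65, 2.32 and 2.93, Ppp1r3c -2.46, -1.26 and -1.88 and Elovl6 -1.81, -3.15 and -1.30, where fish oil passed for Elovl6 (adjusted p = 0.0374). Rbm3 gave 0.22, -0.17 and 0.25. Whether the tissue difference varied with the fat was not tested.

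The calls that depended least on single libraries were few. Of the 93 tissue differences 6 passed in all 29 single removals: Cntnap1, Arsg, Cidea and Osbpl3 of the liver-only class, Ces2g of the muscle-only class and Lgals8. Of these Cntnap1, Cidea and Lgals8 also passed without each set of libraries that stood apart. With the animal as a replicate block, which rests on the 13 mice with both tissues, 16 genes passed (0.113%) and 11 of them were among the 93. Control muscle 1071 and soy liver 1159, which stood apart, came from mice without both tissues and carry no weight in that fit. The part of pairing and the part of losing those libraries cannot be told apart there.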

How the data were processed

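RNA from liver and whole hindlimb muscle was extracted with Trizol and sequenced from TruSeq libraries, per the labels' protocols. The authors deposited 8 overlapping tables of raw read counts for 38124 genes, and 87 comparisons of columns repeated between tables found 0 differences. Total exon reads were joined by gene and total gene and unique exon reads were used for checks. The build was GRCm38, per the submitters' processing notes, and the sources used here name no aligner, counter, annotation release or strand setting. The authors discarded 2 further libraries, the control liver of mouse 1071 and the fish muscle of mouse 1125, because they clustered apart and had lower RNA integrity, per the labels.

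Counts were fitted in 1 model of 8 groups with edgeR 4.0.16 (R 4.3.3), trimmed mean of M-values (TMM) scaling and filterByExpr at a minimum count of 10, which left 14150 genes. Restriction is the equal mean of the 3 restricted diets minus control. The threshold was 0.05 on the Benjamini-Hochberg adjusted p. A gene was measured in a tissue if the same filter kept it among that tissue's libraries. Levels are CPM on TMM-scaled totals, and errors are standard errors recovered from the log2 fold change and its F value. On simulated counts of 14047 genes the tissue difference recovered 71% of 100 genes changed 2-fold and 89% of 100 changed 4-fold, with 7.51% of calls false. Those counts were drawn independently around the mean of each tissue, and only genes measured in both tissues were changed. They held no libraries that stood apart and no animals shared between tissues, so these rates need not hold for the calls made here. Alternatives used DESeq2 1.42.0 and limma 3.58.1, other filters and scalings, unique reads, single diets, left-out libraries and the animal as a block.

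The labels give the same mouse numbers to both tissues, so the animal pairs 13 mice; the correlation of their paired deviations was -0.0718 to 0.128 (median 0.0629). The 39 pairs of replicates all differed beyond sampling noise, with a lowest chi-square per degree of freedom of 10.31. Members, gene lists and settings were chosen with earlier results of these data known. Named genes are those with a symbol, measured in both tissues and at 5 CPM or more in the responding tissue: up to 5 per class and direction by smallest p, up to 6 opposite genes, up to 3 called per pathway list, and up to 3 per direction among genes measured in 1 tissue. A few genes that the rule or a class holds are not reported here. Others are named as chosen after their values were seen.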

Additional observations from a re-analysis of the deposited data

Results flagged for a closer look

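In 185 groups of 4 libraries, 1 library lay far from the other 3 in 10 groups (5.405%), and chance alone flags about 1 in 20. Control muscle 1120 was at 3.169 CPM for Cidea (others 0.8266 to 1.182) and 3.232 CPM for Clec1b (others 0.132 to 0.3444), and control muscle 1095 at 107.9 CPM for Rbm3 (others 96.64 to 98.5). Lard muscle 1130 was at 75.68 CPM for Ginm1 (others 71.09 to 71.71) and 0.2336 CPM for S100a8 (others 0.1122 to 0.1314), and lard muscle 1101 at 1.183 CPM for Mup15 (others 0.1496 to 0.1874). Among livers, lard liver 1130 was at 8.315 CPM for Osbpl3 (others 4.783 to 5.184), lard liver 1100 at 45.0 CPM for Ppp1r3c (others 20.94 to 24.85) and lard liver 1102 at 4.058 CPM for Mup15 (others 0.731 to 1.256). Fish liver 1124 was at 32.65 CPM for Lepr (others 73.49 to 80.45).

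With all libraries the test of the difference itself passed for 93 genes. Among those named, liver was lower relative to muscle, on the log2 scale, for Mup15 (-7.33), Mup17 (-5.96), Cidea (-5.17), Osbpl3 (-2.66), Cntnap1 (-2.51), Aqp4 (-2.27), Ppp1r3c (-1.87), Ccdc141 (-1.71), Gpc1 (-1.52), Arsg (-1.49), Abcg2 (-1.15), Lgals8 (-0.89), Mtx3 (-0.76), Rnf170 (-0.69), Mgea5 (-0.67) and Ginm1 (-0.52). It was higher relative to muscle for S100a8 (8.11), Cux2 (5.46), Clec1b (5.07), Cks2 (3.24), Rab40b (2.66), Lepr (2.30), Ces2g (1.52), Postn (1.49), Anxa1 (1.36), Pla2g16 (1.31), Tmem9 (1.19), Tagln2 (0.98), Rnase4 (0.97), Fam177a (0.86) and Ube2r2 (0.70).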

How the results depend on the processing

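Counts are given as tissue difference, liver, muscle, shared, liver-only, muscle-only and opposite, with 93, 194, 1244, 3, 28, 35 and 2 from all libraries. They were 9, 236, 15, 0, 6, 2 and 0 without control muscles 1071 and 1120, 49, 209, 2260, 19, 23, 14 and 2 without soy livers 1073 and 1159, and 11, 349, 32, 0, 6, 4 and 0 without all 4. DESeq2's Wald test gave 444, 279, 1714, 15, 70, 224 and 4, limma-voom with library weights 48, 823, 336, 16, 26, 13 and 2, and a mean of at least 5 CPM in each tissue 21, 80, 720, 8, 10, 9 and 2. Soybean oil alone gave 103, 355, 128, 1, 47, 23 and 0, fish oil 24, 64, 378, 0, 6, 11 and 1, and lard 0, 112, 315, 1, 0, 0 and 0. With each tissue fitted alone muscle had 457 calls. Only the smallest classes moved with DESeq2 size factors (7 shared), unique exon reads (5 shared) and restricted libraries as 1 group (1 shared, 1 opposite). TMM within each tissue and no filter left every count within 1.5 times. The cause of these moves was not tested, except that fewer genes or libraries enter where a filter or a removal is named.

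Single removals gave 9 to 466 tissue differences, 84 to 222 liver calls, 283 to 2223 muscle calls, 1 to 9 shared, 4 to 48 liver-only, 1 to 301 muscle-only and 0 to 4 opposite genes. With the animal as a replicate block, pairing liver and muscle of a mouse, 16 tissue differences passed; that fit was made for the tissue difference alone. On unique exon reads Rnf170 turned to 0.047 in the tissue difference and 0.0028 in liver. The control groups of 3 livers and 4 muscles limit every comparison, and genes near 1 CPM rest on few reads per library.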
